A study of Mus musculus with 2931 samples.

Results

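The adhesion G protein-coupled receptors were examined in endothelial cells (EC), which form the inner lining of vessels, of the mouse lung. Members were all rows of the count table whose symbol starts with Adgr, a lower-case letter and a digit. These were 21 of 18072 genes, and together they held 0.208% of all reads. The study sequenced RNA of 2931 single cells sorted from distal lung, each cell in its own well as a full-length library cut by the Tn5 transposase and without molecular barcodes. The groups with the treatment named normal were E18.5 (before birth), P1, P7 and P21 (days after birth), and a further group at P7 had hyperoxia (breathing of raised oxygen). Each of these 5 groups had 1 female and 1 male mouse name, and neither the strain nor the oxygen level was stated. Whether a mouse name is a single animal or a pool is unknown, so n counts mouse names and p-values rest on the spread between them. The mice of a group differ in sex, so any difference between the sexes is part of that spread. The authors gave every cell one of 10 subtype labels, which were used unchanged.

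Adhesion receptors carry a long extracellular region that binds matrix or neighbouring cells, joined to a G protein-coupled membrane domain. Most of them are cut by their own GAIN domain, and the stretch freed at the cut can act as a tethered agonist. In vessels the family is known for Adgrl4, a gene of sprouting and tumour endothelium, for Adgrf5, which acts in lung endothelium and in the surfactant-making alveolar epithelium, and for Adgra2, a co-receptor for Wnt7 signals in brain vessels. Adgre5 encodes CD97, the receptor of CD55, and the latrophilins Adgrl1, Adgrl2 and Adgrl3 bind teneurins and FLRT proteins. Adgrg6 is needed for myelination by Schwann cells and binds collagen IV, laminin and the prion protein, while Adgrg1 binds collagen III and transglutaminase 2.

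A cell had 621406 reads in the median (lowest 42095, highest 2967985), and summed reads per mouse lay between 56564316 and 331392982. Endothelial markers were present under every label, at 3814 to 16145 CPM (reads of a gene scaled to a common library total by the counts-per-million rule) for the sum of 5 genes. The label markers also followed the labels: 3 Car4+ capillary genes summed to between 5951 and 12879 CPM in Car4+ capillaries and to at most 1014 CPM in the Early and Late Car4- capillaries, and 4 lymphatic genes to between 5454 and 10206 CPM in lymphatic EC and at most 618 CPM elsewhere. The median number of detected genes per cell was lowest in the P21 male mouse, at 1831 against at least 3038 in the other mice. This mouse also held 120 of the 224 cells sorted through a gate named mesench, the P21 female mouse 65, and most other cells (2694) came through the gate for the endothelial protein CD31. The label Late Car4- was mostly P21, with 268 and 265 cells from these mice of the 616 cells in mice with at least 4, so that label and age are confounded there and cannot be told apart. For CD31-gate cells no mouse of P7 shared a sequencing run with a mouse of P1, which makes that step one of run and age together. In that gate the male E18.5, P7, P21 and hyperoxia mice shared run DC30, and the female E18.5, P1 and P21 mice run DC23. The female P7 (DC21), female hyperoxia (DC36) and male P1 (DC35) mice shared theirs with no other mouse. Run thus also differs in the female mice for P21 against P7 and for hyperoxia, and in the male mice for P1 against E18.5.

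Of the 21 members, 11 had a mean of at least 20 CPM under at least 1 label: Adgra2, Adgra3, Adgre5, Adgrf5, Adgrg1, Adgrg3, Adgrg6 and Adgrl1 to Adgrl4. Another 5 reached only between 1 and 20 CPM. Among these, Adgrv1 (the gene of a giant receptor of inner ear hair cells) had its highest mean in arterial EC I at 14.9 CPM, but 82.2% of its reads in the P7 female mouse were in 1 cell of 16. The highest means of the other 4 each came mainly from 1 mouse. Adgrd1 had a mean of 3.46 CPM in Late Car4- capillaries, with 18.3 CPM in the P21 male mouse and at most 1.95 CPM in the others. Adgre4 had 4.85 CPM in nonproliferative embryonic EC of the female mouse, 87.5% of it in 1 cell, and 0.0146 CPM in the male mouse. Adgre1, which encodes a macrophage surface antigen, had 11.8 CPM in the 5 lymphatic cells of the P7 male mouse and 0 reads in the other 5 lymphatic mice. Adgrf4 had 8.18 CPM in arterial EC I of the female hyperoxia mouse, all of it in 1 cell, and at most 0.256 CPM in the other mice. Adgrb2, Adgrb3, Adgrf3, Adgrg2 and Adgrg5 had means under 1 CPM under every label, and the highest value in a single mouse was 3.49 CPM, for Adgrg5 in proliferative EC.

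The windows of 250 bases before the transcription start are shown for 5 members, chosen after their values were seen, whose levels in capillaries, larger vessels and lymphatic EC are described below. They come from RefSeq on GRCm38.p6, which held a window for 16 of the 21 members. Capitals mark the ETS core (AGGAAG or CGGAAG, either strand), the motif bound by factors that include the endothelial regulators Erg and Fli1. It was found in 39.2% of 32851 windows of this length, and the nuclear receptor half-site AGGTCA, searched on both strands for the venous factor Nr2f2, in 14% of them. Adgrf5 is read from the plus strand (window at chr17:43360181-43360430), Adgrl4 from the plus strand (chr3:151437632-151437881), Adgrl2 from the minus strand (chr3:148954636-148954885), Adgrg6 from the minus strand (chr10:14545037-14545286) and Adgrg3 from the plus strand (chr8:95017442-95017691). The Adgrl2 and Adgrg6 windows lie inside the spans that GENCODE M21 gives these genes, which start farther upstream.
Adgrf5: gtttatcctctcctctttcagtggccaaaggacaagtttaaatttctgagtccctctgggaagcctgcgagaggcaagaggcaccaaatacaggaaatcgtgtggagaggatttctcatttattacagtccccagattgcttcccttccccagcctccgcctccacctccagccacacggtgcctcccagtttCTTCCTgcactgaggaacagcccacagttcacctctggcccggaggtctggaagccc
Adgrl4: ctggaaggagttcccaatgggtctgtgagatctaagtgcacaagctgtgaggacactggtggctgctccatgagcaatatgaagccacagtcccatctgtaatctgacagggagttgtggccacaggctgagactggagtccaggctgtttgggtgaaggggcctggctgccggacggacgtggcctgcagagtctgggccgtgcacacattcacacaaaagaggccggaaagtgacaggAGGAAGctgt
Adgrl2: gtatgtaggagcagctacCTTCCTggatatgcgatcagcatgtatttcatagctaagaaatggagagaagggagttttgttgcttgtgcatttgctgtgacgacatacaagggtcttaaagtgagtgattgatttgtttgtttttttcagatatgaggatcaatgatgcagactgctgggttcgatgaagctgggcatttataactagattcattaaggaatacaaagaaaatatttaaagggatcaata
Adgrg6: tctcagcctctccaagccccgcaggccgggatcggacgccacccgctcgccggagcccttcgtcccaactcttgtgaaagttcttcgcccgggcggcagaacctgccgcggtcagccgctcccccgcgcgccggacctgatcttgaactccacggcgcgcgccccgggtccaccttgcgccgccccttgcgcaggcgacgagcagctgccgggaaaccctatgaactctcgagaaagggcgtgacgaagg
Adgrg3: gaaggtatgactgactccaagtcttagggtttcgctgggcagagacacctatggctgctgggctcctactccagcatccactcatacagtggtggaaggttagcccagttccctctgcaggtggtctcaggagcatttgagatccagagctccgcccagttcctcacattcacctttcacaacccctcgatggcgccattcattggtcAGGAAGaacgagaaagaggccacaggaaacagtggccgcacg
Each of the Adgrf5, Adgrl4, Adgrl2 and Adgrg3 windows held 1 ETS core. The Adgrg6 window held none, and AGGTCA was in none of the 5. These matches describe the letters and say nothing of binding.

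Adgrf5 and Adgre5 were the most abundant members per length. On the RPKM scale (CPM divided by the exon length in kilobases), which allows genes to be compared, Adgre5 (chr8:83723251-83741326, minus strand) had a mean of 194 ± 71.8 RPKM (SD, n = 6 mice) in Late Car4- capillaries, 185 ± 59.9 (n = 8) in Car4+ capillaries and 191 ± 93.8 (n = 8) in arterial EC I. Adgrf5 (chr17:43360451-43459557, plus strand) had 142 ± 44.3 RPKM (n = 6) in Late Car4- and 107 ± 43.7 (n = 8) in Car4+ capillaries. The next in order were Adgrl4 with 74.9 ± 46.1 RPKM (n = 6) in Late Car4- capillaries and Adgrl2 with 43.0 ± 25.3 (n = 8) in Car4+ capillaries. The highest mean was 24.99 ± 4.73 RPKM (n = 6, lymphatic EC) for Adgrg3, 23.4 ± 0.820 (n = 2, proliferative venous EC) for Adgrg6 and at most 16.001 RPKM for each of Adgra2, Adgra3, Adgrg1, Adgrl1 and Adgrl3. Exons of Adgre5 overlap those of Ddx39 on the opposite strand, and those of Adgra2 overlap Brf2. Whether strand was used in counting is not stated, so reads of these pairs may not be told apart.

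**Figure D1:**
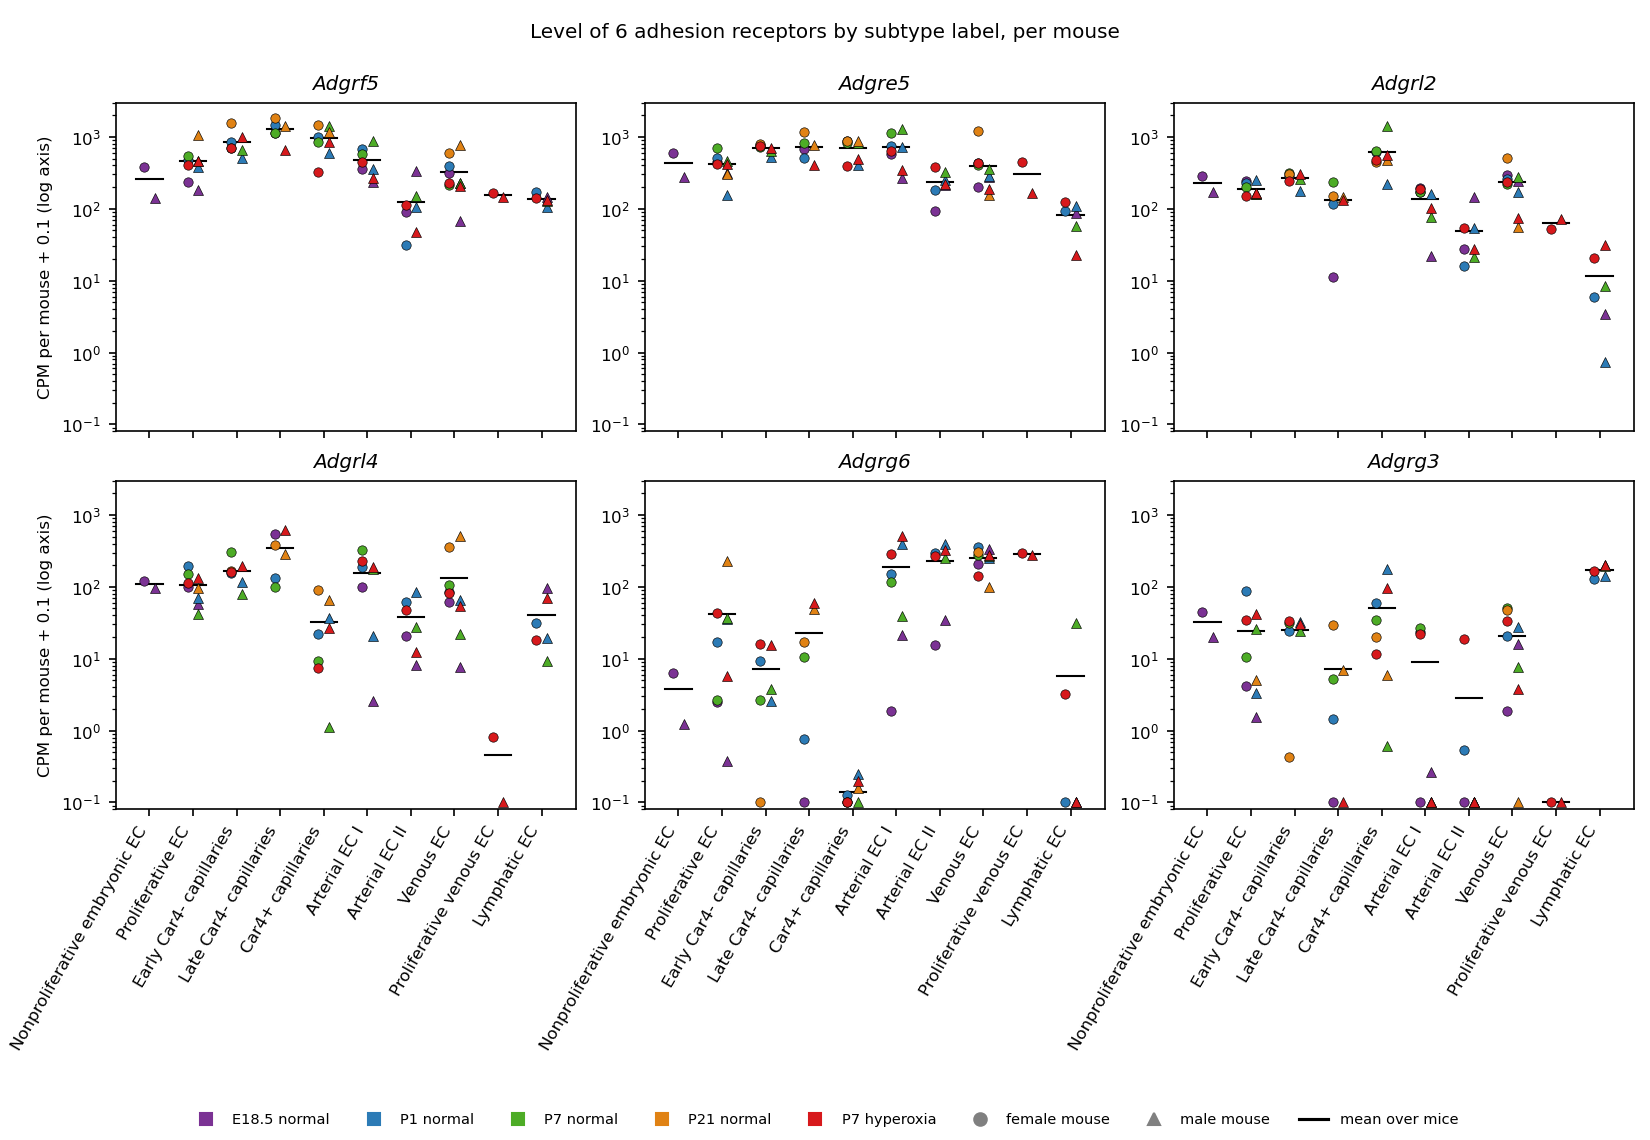
Level of 6 adhesion receptor genes under each of the 10 subtype labels. Each point is the summed reads of 1 mouse in CPM plus 0.1 on a log axis (circles female, triangles male, colours the group), and lines are means over mice; Adgrg6 lies between 101 and 355 CPM in venous EC and at most at 0.149 CPM in Car4+ capillaries, and Adgrg3 is highest in lymphatic EC.

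Adgrf5 had its highest mean in Late Car4- capillaries. In Late Car4- capillaries the lowest, median and highest mouse had 660, 1276 and 1844 CPM. In Car4+ capillaries they had 326, 934 and 1485 CPM, and in Early Car4- capillaries 510, 702 and 1557 CPM. The capillary labels overlapped each other, so their order does not differ beyond the spread of the mice. Arterial EC I (239 to 887 CPM), proliferative EC (183 to 1059 CPM) and venous EC (67.7 to 766 CPM) came next, and they overlapped the capillary labels too. Lymphatic EC held 105 to 171 CPM and arterial EC II 31.4 to 340 CPM. Detection moved less than level: with every cell thinned to 50000 reads, 94.3% of Car4+ capillaries, 81.1% of venous EC and 70.7% of lymphatic EC had an Adgrf5 read.

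Adgre5 was broad among blood vessels and low in lymphatic vessels. The 8 mice had 388 to 881 CPM in Car4+ capillaries, and the 7 mice with Early Car4- cells 526 to 809 CPM. Arterial EC I spanned 269 to 1297 CPM, and arterial EC II, the other arterial label, 92.4 to 381 CPM. In lymphatic EC the 6 mice had 22.5 to 125 CPM, below the lowest venous mouse (154 CPM). A read was seen in 92.8% of thinned Early Car4- cells and in 52.4% of lymphatic cells.

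Among the latrophilins, Adgrl2 (chr3:148815583-148990555, minus strand) had its highest mean in Car4+ capillaries. Its lowest, median and highest mice had 218, 521 and 1436 CPM in Car4+ capillaries. The same values were 176, 288 and 310 CPM in Early Car4- capillaries, 55.6, 239 and 513 CPM in venous EC and 11.2, 139 and 233 CPM in Late Car4- capillaries. Lymphatic EC were lowest, with at most 31.2 CPM. Adgrl1 varied within narrower limits, from a mean of 24.5 CPM in proliferative venous EC to 104 CPM in proliferative EC, and neighbours in this order overlapped. Adgrl3 (chr5:81020138-81825133, plus strand) was highest in proliferative EC at 132 ± 152 CPM (n = 9), a mean raised by the P21 male mouse with 522 CPM in 7 cells, and its median there was 75.4 CPM. Early Car4- capillaries had a median of 84.8 CPM of Adgrl3, while venous EC had 5.36 CPM and lymphatic EC 1.40 CPM.

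Adgrl4 (chr3:151437887-151545086, plus strand) showed the converse of Adgrl2 in the capillaries. In Late Car4- capillaries its lowest, median and highest mice had 98.3, 336 and 623 CPM, and in Early Car4- capillaries 79.1, 159 and 307 CPM. In Car4+ capillaries they had 1.03, 24.6 and 89.2 CPM. Arterial EC I (2.44 to 321 CPM) and venous EC (7.59 to 503 CPM) covered both ranges. The 2 mice with proliferative venous cells, both from hyperoxia, had 0.702 and 0 CPM of Adgrl4 in 5 cells each.

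Adgrg6 (chr10:14402583-14545659, minus strand) was a gene of the larger vessels. Venous EC had 101, 274 and 355 CPM in the lowest, median and highest of 10 mice. Proliferative venous EC had 293 and 279 CPM, arterial EC II 15.4, 268 and 400 CPM over 7 mice, and arterial EC I 1.77, 135 and 516 CPM over 8. The venous and arterial ranges overlapped. In Car4+ capillaries the gene was near 0, with 9 reads in all over 332 cells and at most 0.149 CPM in a mouse. With thinned cells, an Adgrg6 read was found in 81.6% of venous EC, 76.2% of arterial EC II, 50.5% of arterial EC I, 9.16% of Late and 5.62% of Early Car4- capillaries, 1.22% of lymphatic EC and 0.301% of Car4+ capillaries. The summed level of 3 venous markers was 1544 to 7947 CPM in venous EC, 149 to 2384 CPM in arterial EC I and 313 to 2186 CPM in arterial EC II, and at most 34.1 CPM in Car4+ capillaries. In arterial EC II at least 1 of the 3 was at 0 in every mouse, and nearly all of the sum was Vwf.

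Adgrg3 (chr8:95017692-95045250, plus strand), whose neighbours on that chromosome are Adgrg1 and Adgrg5, was a gene of lymphatic EC. The 6 lymphatic mice had 127 to 204 CPM with a median of 182 CPM. No other label had a median above 32.6 CPM, although the P1 male mouse had 176 CPM in 17 Car4+ cells. Mesenchymal and mural markers (8 genes) summed to 2636 CPM in the 5 lymphatic cells of the P7 male mouse and to at most 33.8 CPM in the other lymphatic mice, and Adgrg3 was 197 CPM in that mouse and 127 to 204 CPM in the others. A read was found in 53.7% of thinned lymphatic cells and in at most 18.996% of cells under any other label. Its neighbour Adgrg1 (chr8:94974751-95014217, plus strand) had its highest mean in Car4+ capillaries, with a lowest, median and highest mouse of 6.98, 26.6 and 165 CPM. This mean was raised by the hyperoxia mice, at 165 and 123 CPM, against 6.98 to 57.6 CPM in the normal mice. Arterial EC I of the normal mice had 0 to 57.3 CPM. The other neighbour, Adgrg5, was hardly read.

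Adgra2 and Adgra3 were low to moderate. Adgra3 had means between 91.4 and 130 CPM in Early and Late Car4- capillaries, nonproliferative embryonic EC and proliferative EC, against 24.6 ± 23.9 CPM (n = 10) in venous and 5.38 ± 7.602 CPM (n = 6) in lymphatic EC. The Adgra2 means lay between 5.21 and 44.9 CPM, and the highest rested on the E18.5 female mouse, with 234 CPM in 12 Late Car4- cells against a median of 10.2 CPM.

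**Figure D2:**
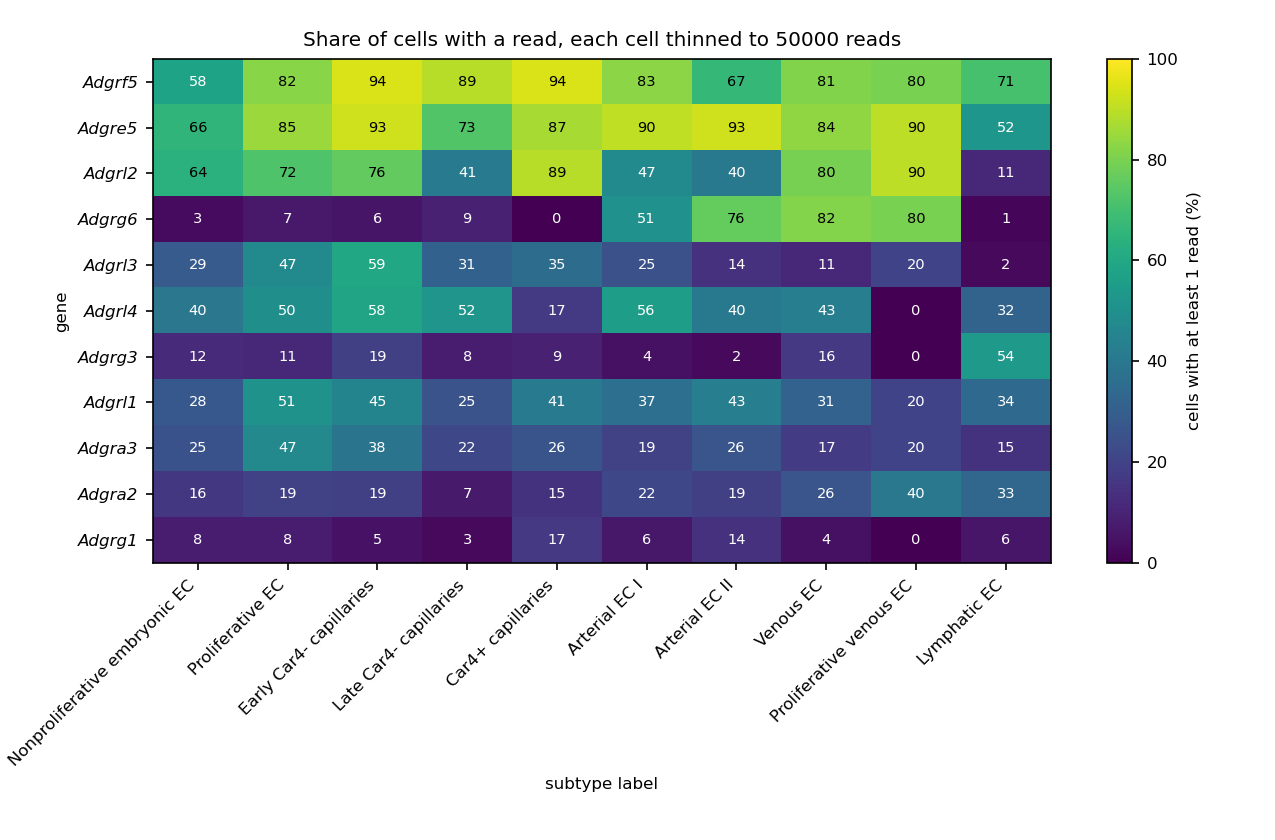
Share of cells with at least 1 read of each of the 11 more abundant members (rows) under each subtype label (columns), in percent, after thinning every cell to 50000 reads. Adgrf5 and Adgre5 are found in most cells of every label, Adgrg6 in 81.6% of venous EC and Adgrg3 in 53.7% of lymphatic EC.

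Labels were set against each other within mice. They rest on the expression of the same cells, so these differences are descriptions without a test. The count taken was of genes with at least 5 CPM in either label that lay on one side in every mouse and differed at least 2-fold in the mean. Against the Car4- capillaries (Early and Late together), Adgrl2 was higher in Car4+ capillaries in 8 of 8 mice, at 610 ± 359 against 230 ± 64.8 CPM or 2.65-fold. Adgrl4 was lower in 8 of 8 mice, at 32.2 ± 30.7 against 207 ± 101 CPM or 6.43-fold, and so was Adgrg6, at 0.0418 against 14.6 CPM. Adgrl3 was also lower in 8 of 8 mice, at 56.3 against 97.9 CPM, which is under 2-fold. Of 11 members counted, 1 was thus higher and 2 were lower, where 2.08% of all genes were higher and 7.33% lower by the same rule. The means of Adgrf5 (962 and 969.9 CPM) and Adgre5 (695 and 761 CPM) were close, and each gene was higher in 4 of 8 mice.

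Venous EC were set against Car4- capillaries in 9 mice. Adgrg6 was higher in 9 of 9, at 243 ± 79.9 against 13.01 ± 14.98 CPM or 18.7-fold. Adgrf5 was lower in 9 of 9, at 354 ± 200.3 against 978 ± 415 CPM or 2.76-fold, and Adgrl3 lower in 9 of 9, at 6.65 ± 6.77 against 88.8 ± 47.5 CPM or 13.4-fold. The shares among all genes were 1.69% higher and 2.52% lower, and the count of 3 members became 5 without the P21 male mouse, which had 4 venous cells. In arterial EC I, Adgrg6 was again higher than in Car4- capillaries, in 7 of 7 mice at 214 ± 190 against 7.34 ± 6.82 CPM, with no member lower (0.878% of genes higher, 2.87% lower). This count of 1 became 2 without the P1 female or the P7 female mouse.

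Between the vessel sides, venous EC had less Adgrf5 than arterial EC I in 8 of 8 mice (236 ± 94.3 against 477 ± 223 CPM, 2.02-fold) and less Adgrl1 (34.7 ± 24.98 against 91.3 ± 74.2 CPM, 2.63-fold). No member was higher, and 3.19% of genes were higher and 1.23% lower. Without the P7 female mouse 1 of these 2 members met the rule. Adgrg6 did not separate the sides over all mice, being higher in venous EC in 5 of 8, all of them normal. Arterial EC I was higher in the P1 male mouse (389 against 251 CPM). It was also higher in the female and male hyperoxia mice (285 and 516 against 142 and 278 CPM). Whether the order of the sides differs with hyperoxia was not tested. Proliferative EC had no member past the rule against Car4- capillaries (3.45% of genes higher, 0.877% lower), although Adgre5 (426 against 701 CPM) and Adgrf5 (503 against 869.9 CPM) were lower in 8 of 8 mice. Leaving out the P1 female mouse or the female hyperoxia mouse brought 1 member past it.

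Lymphatic EC were set against venous EC in 6 mice. Adgrg3 was higher in 6 of 6, at 173 ± 32.7 against 18.04 ± 11.3 CPM or 9.57-fold. Lower in 6 of 6 were Adgre5 (82.4 ± 37.1 against 327 ± 96.6 CPM), Adgrg6 (5.66 against 273 CPM) and Adgrl2 (11.7 against 209.8 CPM). So 1 of 10 members was higher and 3 lower, where 6.36% and 5.83% of all genes were.

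Changes with age and hyperoxia were tested on the reads of a class summed per mouse (at least 8 cells), with edgeR's quasi-likelihood test and Benjamini-Hochberg adjustment over all genes. In such sums, fewer cells with a transcript and less of it per cell cannot be told apart. No member passed an adjusted p of 0.05 in any of the 17 comparisons. Between 0 and 4 members of a comparison had an unadjusted p under 0.05, where 2.59% to 13.5% of all genes did. DESeq2 called between 0 and 3 members and between 76 and 890 genes in all, and limma called no member. The share of all genes that edgeR called was also small. In Car4- capillaries it was 0% for P7 against P1, 0.266% for P21 against P7, 0.368% for P21 against P1 and 0.0136% for hyperoxia. In Car4+ capillaries it was 0% for P7 against P1 and for hyperoxia, and 0.00814% for P21 against each of P7 and P1. In venous EC it was 0.0162% for P1 against E18.5 and 0% for P7 against P1 and for hyperoxia, in proliferative EC 0% in each of 3 comparisons, in arterial EC I 0.0293% for P1 against E18.5, and 0.494% for birth (embryonic EC at E18.5 against Car4- capillaries at P1). The values below are therefore those of members with an unadjusted p under 0.05, with every mouse shown. Counts of cells with a read given beside them are from cells that were not thinned, and depth differed between mice. The median reads per cell were 928377 and 188610 in the female and male normal P7 mice, the latter the lowest of all mice. Under hyperoxia they were 540669 and 765660. The part of depth in these counts was not tested.

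In Car4- capillaries from P7 to P21, the differences with a low p were in Adgrf5, Adgrg6, Adgrl2 and Adgrv1. The P7 mice had 162 and 114 Early and 44 and 2 Late cells. The P21 mice had 4 and 3 Early and 268 and 265 Late cells. Subtype label and age thus differ together here and cannot be told apart. Adgrf5 stood at 1839 and 1408 CPM in the female and male mice of P21, against 758 and 651 CPM at P7 and 885 and 523 CPM at P1. The P21 mice lay above all 4 others, and the log2 change from P7 was 1.31 with a standard error (SE) of 0.38 (edgeR adjusted p = 0.240) and the change from P1 was 1.24 with an SE of 0.38 (edgeR adjusted p = 0.210). DESeq2 called both. Within the male sequencing run the level in CD31-gate cells was 1395 CPM for P21 and 758 CPM for P7, and within the female run it was 1837 CPM for P21 and 884 CPM for P1. Because Adgrf5 is also made by alveolar epithelium, the epithelial markers (7 genes, among them Sftpc) are given beside it: their sum was 141 and 222 CPM at P21, 28.2 and 57.1 CPM at P7 and 60.04 and 96.4 CPM at P1. Their part in the Adgrf5 difference was not tested.

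Adgrg6 in Car4- capillaries was 16.9 and 48.7 CPM at P21, 3.59 and 3.62 CPM at P7 and 8.47 and 2.45 CPM at P1. The groups of P21 and P7 did not overlap, with a log2 change of 3.35 and an SE of 0.88 (edgeR adjusted p = 0.186; called by DESeq2). The reads came from a small share of cells, 33 of 272 and 39 of 268 at P21 and 15 of 206 and 10 of 116 at P7. In the male run alone the values were 61.1 and 4.29 CPM. The 3 venous markers were also higher, with sums of 146 and 249 CPM at P21 and 93.2 and 104 CPM at P7, and their part in the result was not tested. Adgrl4 had 379 and 288 CPM at P21 against 154 and 115 CPM at P1 (log2 change 1.33, SE 0.50, edgeR adjusted p = 0.294), but its P7 mice had 281 and 77.6 CPM. Adgrl2 went the other way, with 150 and 143 CPM at P21 and 300.1 and 252 CPM at P7 (log2 change -0.80, SE 0.35, edgeR adjusted p = 0.449). Of the 14 members tested for P21 against P7, 6 were higher and 4 lower without overlap of the mice, where 41.2% of all genes did not overlap. The median log2 change of the members was 0.34, and that of all genes 0.06.

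**Figure D3:**
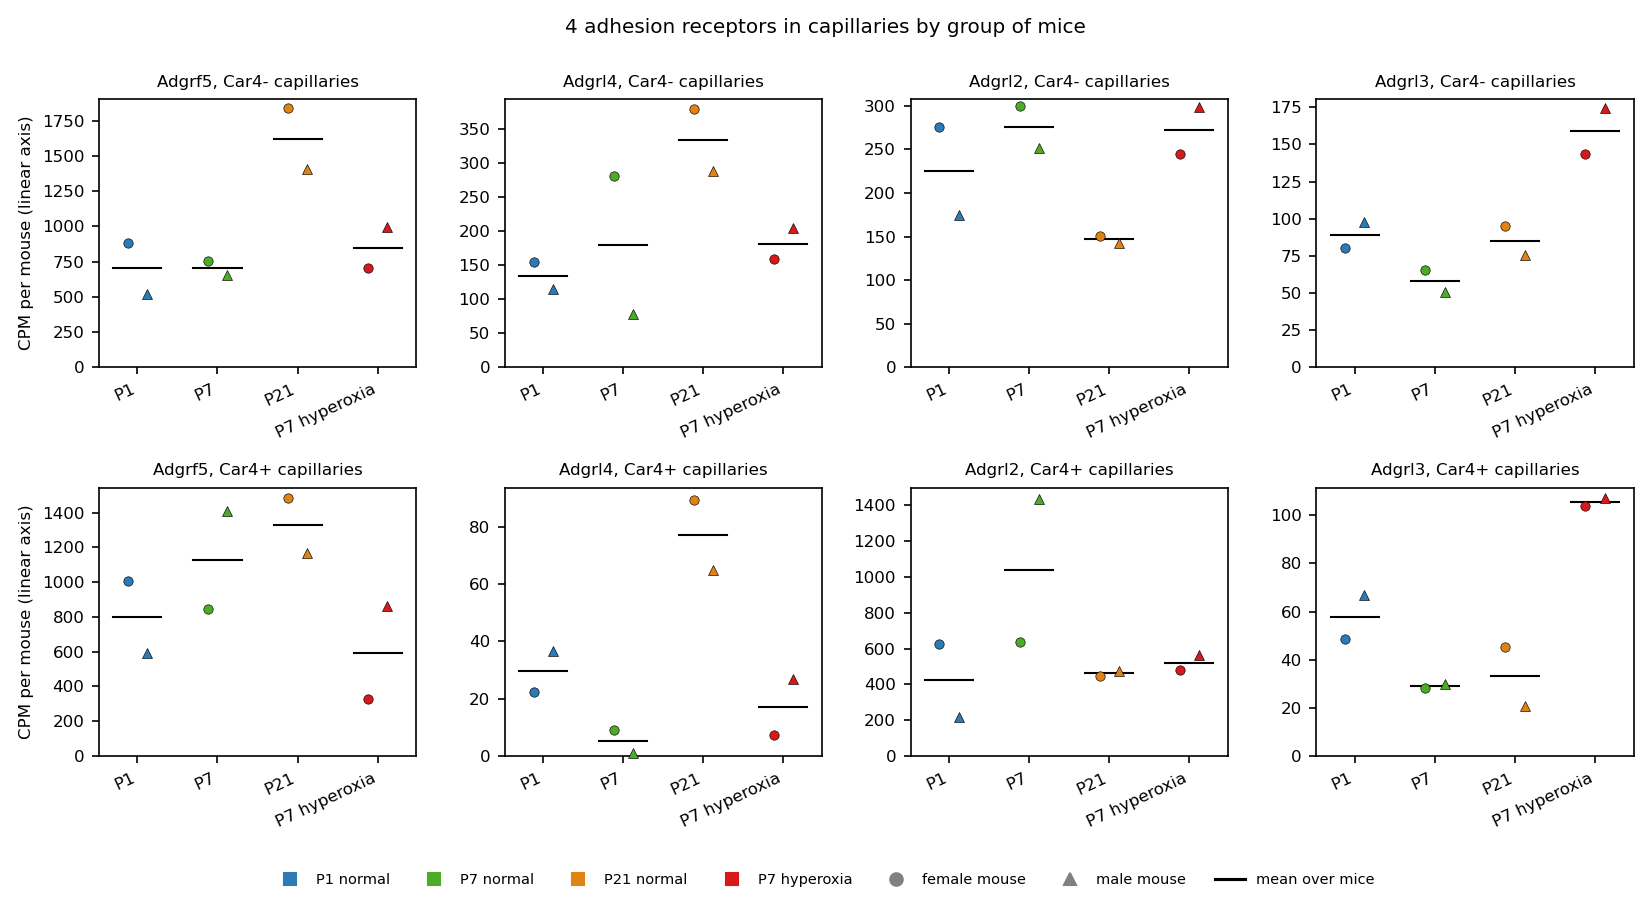
Adgrf5, Adgrl4, Adgrl2 and Adgrl3 in Car4- (upper row) and Car4+ capillaries (lower row) by group of mice. Each point is the CPM of 1 mouse on a linear axis that differs between panels, and lines are means over the 2 mice; Adgrf5 in Car4- capillaries is highest at P21 (1839 and 1408 CPM) and Adgrl3 is highest under hyperoxia in both rows.

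A pair of rarely read members also had a low p in the Car4- capillaries, with most reads in single cells. Adgrv1 had 9.62 and 4.21 CPM at P7 and 0.144 and 0.138 CPM at P21, and 68.5% and 69.9% of the P7 reads were in 1 cell of each mouse, the rest being spread over the other cells with a read (20 of 206 and 14 of 116 in all). Adgrd1 had 1.92 and 17.98 CPM at P21 against 0.0122 and 0 CPM at P1, with 2.21 and 0.205 CPM at P7, and 99.8% of the P21 male reads were in 1 cell.

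In Car4+ capillaries, Adgrl4 was 89.2 and 64.9 CPM at P21 against 9.13 and 1.03 CPM at P7 and 22.3 and 36.8 CPM at P1. The P21 mice were above all others, and the log2 change from P7 was 3.96 with an SE of 1.39 (edgeR adjusted p = 0.858; called by DESeq2). The count of cells with a read was 25 of 57 and 14 of 77 at P21, and 7 of 42 and 3 of 24 at P7. Among the P1, P7 and P21 mice, Adgrl4 thus had its highest values at P21 in both capillary classes. In Car4- capillaries the E18.5 female mouse had more, at 481 CPM in 13 cells, with 89.1% of the reads in 1 cell. In each of the 8 mice with both classes, Adgrl4 was lower in Car4+ than in Car4- cells. Adgrl2 in Car4+ capillaries was 626 and 218 CPM at P1, 636 and 1436 CPM at P7 and 446 and 476 CPM at P21. The P7 male mouse stood apart: 56.5% of its reads were in 1 cell, and its 6 mesench-gate cells had 2051 CPM against 453 CPM in its 18 CD31-gate cells. The log2 change from P7 to P21 was -1.31 with an SE of 0.58 (edgeR adjusted p = 0.858) and 0.083 in CD31-gate cells alone. Of the 12 members tested, 3 were higher and 1 lower without overlap, where 33.7% of all genes did not overlap.

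Adgrg6 was followed around birth in the arterial and venous labels. In arterial EC I it was 1.77 and 21.04 CPM at E18.5 and 153 and 389 CPM at P1, found in 2 of 12 and 4 of 14 cells before birth and in 12 of 15 and 9 of 10 cells after it. The log2 change was 4.52 with an SE of 1.20 (edgeR adjusted p = 1; 1 of 11 members had an unadjusted p under 0.05, as had 3.36% of all genes, and DESeq2 called it). Leaving out the P1 female or the E18.5 male mouse moved the edgeR adjusted p to 0.00761 and 0.00345, but each leaves 1 mouse on a side, assumed to vary like the other groups, and adds no support. The female run alone gave 1.77 and 153 CPM. The 3 venous markers summed to 345 and 175 CPM in arterial EC I at E18.5 and to 617 and 2384 CPM at P1, mostly reads of Vwf, with 2 of the 3 at 0 in both P1 mice. Their part in the result was not tested. Arterial EC II, which had too few cells for the test, went from 15.4 and 34.3 CPM to 297 and 400 CPM, in 4 to 9 cells per mouse. In venous EC the gene was already at 210 and 340 CPM at E18.5, against 355 and 251 CPM at P1, so those groups overlapped. The difference between the arterial and the venous change was not tested. Later arterial EC I values were 117 and 39.1 CPM at P7 (the latter from 4 cells) and 285 and 516 CPM under hyperoxia.

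**Figure D4:**
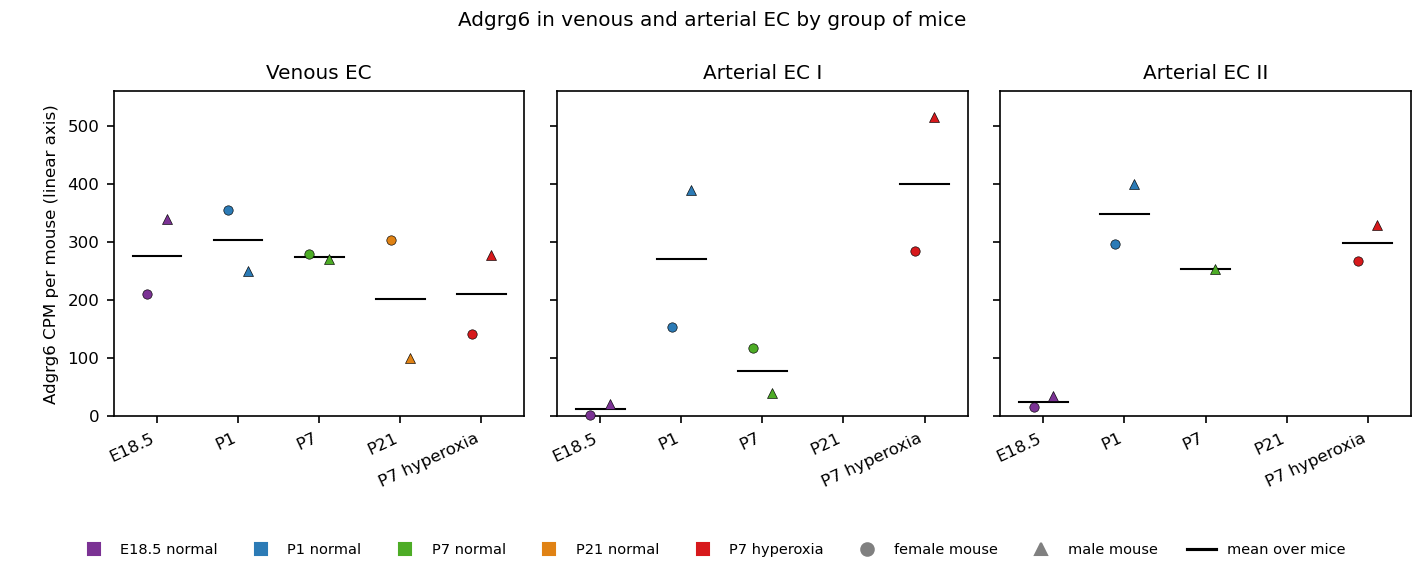
Adgrg6 in venous EC, arterial EC I and arterial EC II by group. Each point is the CPM of 1 mouse with at least 4 cells (linear axis) and lines are means; arterial EC I lies at 1.77 and 21.04 CPM at E18.5 and at 153 and 389 CPM at P1, while venous EC is at 210 and 340 CPM already at E18.5.

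Adgrf5 was lower at E18.5 in the embryonic EC set against P1 Car4- capillaries, and in proliferative EC. The Car4- cells of the E18.5 female mouse went the other way, at 1040 CPM in 13 cells, with 65.4% of the reads in 1 cell. Nonproliferative embryonic EC at E18.5 had 385 and 139 CPM, and Car4- capillaries at P1 885 and 523 CPM, a log2 change of -1.50 with an SE of 0.46 (edgeR adjusted p = 0.301; called by DESeq2). Subtype label and age differ together here. In proliferative EC, where the label is shared, Adgrf5 was 236 and 183 CPM at E18.5 and 473 and 380 CPM at P1 (log2 change 1.11, SE 0.40, edgeR adjusted p = 0.593). Both sets of groups were without overlap and the female run alone gave 385 and 884 CPM for the first and 237 and 473 CPM for the second. Adgrl3 was 35.6 and 46.5 CPM in embryonic EC against 80.0 and 98.0 CPM in P1 Car4- capillaries (edgeR adjusted p = 0.353), and 43.0 and 27.3 CPM against 72.5 and 118 CPM in proliferative EC (edgeR adjusted p = 0.622). Adgrl1 was 61.7 and 55.0 CPM against 125 and 87.4 CPM in the first of these comparisons (edgeR adjusted p = 0.511). Of 16 members tested there, 1 was higher and 3 lower in the embryonic EC without overlap, where 34.6% of all genes did not overlap. In proliferative EC, Adgrg6 was 2.38 and 0.281 CPM at E18.5 and 16.7 and 35.4 CPM at P1 (log2 change 4.48, SE 1.80, edgeR adjusted p = 0.645), with only 13 and 9 cells at P1. An Adgrg6 read was found in 2 cells of each P1 mouse, and 98.99% and 99.54% of the reads were in 1 cell. Adgrg3 was 4.02 and 1.44 CPM against 87.7 and 3.26 CPM, overlapping. Without the P1 male mouse its edgeR adjusted p was 0.0312, a value that rests on 1 P1 mouse of 13 cells, assumed to vary like the other groups.

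Under hyperoxia, Adgrl3 was the member with the smallest p in Car4- capillaries. Its mice had 143.8 and 174 CPM against 65.6 and 50.7 CPM in the normal P7 group, without overlap and also above the P1 and P21 mice (75.3 to 98.0 CPM). The log2 change was 1.43 with an SE of 0.38 (edgeR adjusted p = 0.765; called by DESeq2), and 137 of 153 and 108 of 132 hyperoxia cells held a read against 102 of 206 and 86 of 116. In the male run alone the values were 174 and 55.9 CPM. Car4+ capillaries showed the same direction at 104 and 107 CPM against 28.4 and 29.7 CPM (log2 change 1.59, edgeR unadjusted p = 0.0835), and proliferative EC had 90.7 and 174 CPM against 67.9 and 75.4 CPM (log2 change 0.89). In venous EC, where the gene is low, hyperoxia mice had 7.16 and 5.25 CPM and normal mice 14.4 and 4.09 CPM. Adgrg6 in Car4- capillaries was 16.5 and 16.7 CPM under hyperoxia and 3.59 and 3.62 CPM without it (log2 change 2.18, SE 0.84, edgeR adjusted p = 0.887), from 14 of 153 and 15 of 132 cells. Adgrv1 went the other way there, at 0.0839 and 0.431 CPM under hyperoxia and 9.62 and 4.21 CPM without it (log2 change -4.76, SE 2.14, edgeR adjusted p = 0.887). In the normal P7 mice 68.5% and 69.9% of its reads were in 1 cell. Of the 14 members tested, 3 were higher and 1 lower without overlap, where 33.8% of all genes did not overlap.

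In Car4+ capillaries Adgrg1 had the smallest p under hyperoxia. It had 165 and 123 CPM under hyperoxia and 15.1 and 6.98 CPM in the normal P7 mice, and at P1 and P21 between 8.07 and 57.6 CPM. The log2 change was 3.49 with an SE of 1.01 (edgeR p = 0.00428, adjusted p = 0.731; called by DESeq2). A read was found in 14 of 19 and 10 of 37 hyperoxia cells and in 5 of 42 and 4 of 24 normal cells. One cell held 28.03% and 36.4% of the hyperoxia reads and 70.8% and 83.3% of the normal reads. The male run alone gave 123 and 18.2 CPM. In Car4- capillaries Adgrg1 was 6.89 and 2.65 CPM under hyperoxia and 5.35 and 9.10 CPM without it. In proliferative EC the female hyperoxia mouse had 16.3 CPM (7 of 36 cells) and the male 1.85 CPM, against 2.40 and 4.25 CPM in normal mice. In venous EC they had 6.32 CPM (7 of 23 cells) and 0.0362 CPM, against 0.193 and 0.186 CPM, so in both classes the female hyperoxia mouse alone was higher. The difference of the effects between the classes was a log2 change of 4.30 with an SE of 1.15 (edgeR interaction p = 0.00614, adjusted p = 1), 0% of 13240 genes passed, and DESeq2 called Adgrg1.

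The other members with a low p in Car4+ capillaries had lower means under hyperoxia. Adgre5 was 388 and 487 CPM against 820 and 820 CPM (log2 change -1.17, SE 0.46, edgeR adjusted p = 0.731), and 487 against 972 CPM in the male run. Adgrl2 was 480 and 562 CPM against 636 and 1436 CPM, with the same P7 male mouse as above, and 562 against 453 CPM in the male run, where the order was the other way. Adgrf5 was 326 and 862 CPM against 846 and 1408 CPM, overlapping. In Car4- capillaries the Adgre5 values were 743 and 697 CPM under hyperoxia and 737 and 693 CPM without it. The interaction for Adgre5 was -1.12 with an SE of 0.43 and for Adgrf5 -1.48 with an SE of 0.57 on the log2 scale (edgeR adjusted p = 1 for both). Of 12 members tested, 3 were higher and 3 lower without overlap, where 32.3% of all genes did not overlap. The median log2 change was -0.81 for the members and -0.06 for all genes.

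**Figure D5:**
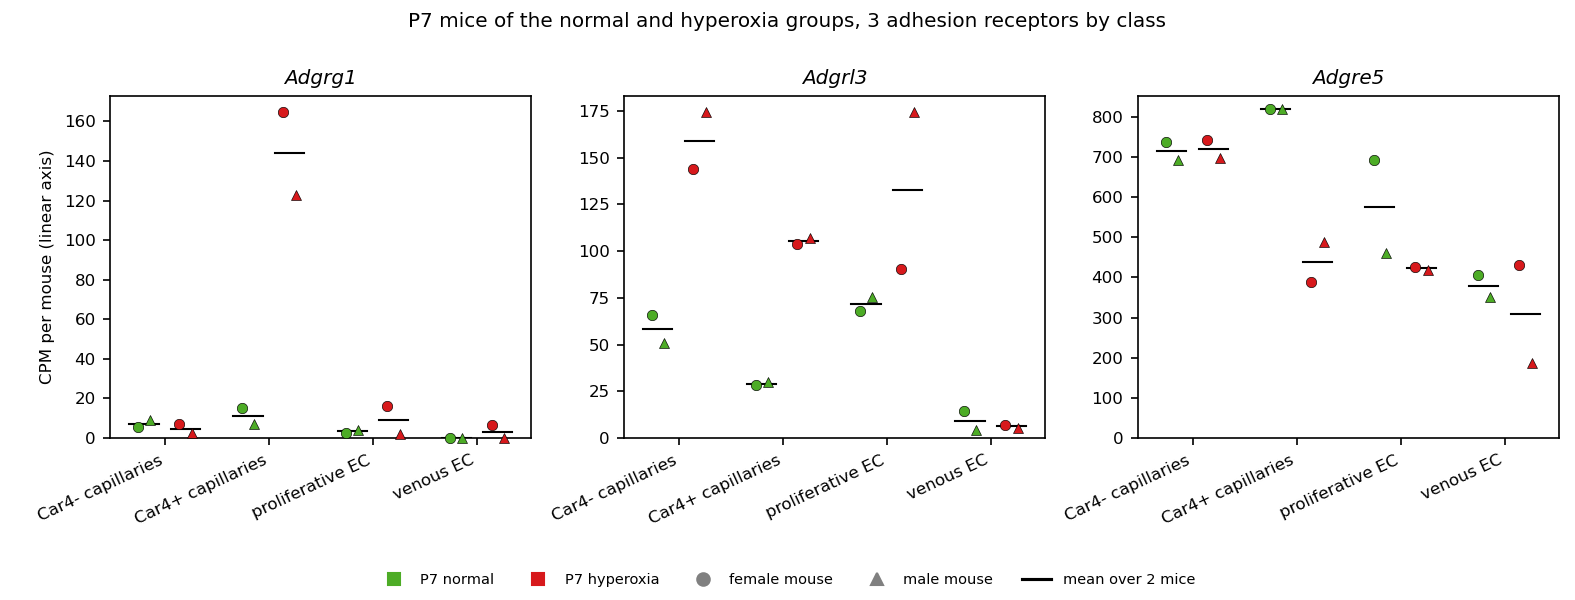
Adgrg1, Adgrl3 and Adgre5 in the P7 mice of the normal (green) and hyperoxia (red) groups in 4 classes of cells. Each point is the CPM of 1 mouse on a linear axis and lines are means over the 2 mice; Adgrg1 is at 165 and 123 CPM in the Car4+ capillaries of the hyperoxia mice and Adgrl3 is higher under hyperoxia in both capillary classes.

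In venous EC 0 of 12 members had an unadjusted p under 0.05 in any of the 3 comparisons, and in proliferative EC 0 of 14 for P7 against P1 and for hyperoxia. The shares of all genes at that p were 8.71% (P1 against E18.5), 3.21% (P7 against P1) and 2.69% (hyperoxia) in venous EC, and 9.82% and 2.59% in proliferative EC, so that few or no members would be counted at the share of all genes. DESeq2 called no member in these 5 comparisons.

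Ligands, co-receptors and G proteins known for these receptors were followed as a list of 43 genes, of which 20 to 29 could be tested in a comparison. edgeR called 0 of them in each of the 17 comparisons, and 0 to 6 had an unadjusted p under 0.05. Prnp, which encodes the prion protein bound by Adgrg6, had 296 and 157 CPM in Car4- capillaries under hyperoxia and 107 and 32.3 CPM without it (log2 change 1.66, edgeR adjusted p = 0.887), and 11.7 and 16.03 CPM at P21 (log2 change from P7 -2.21, edgeR adjusted p = 0.163). Its order over the groups was thus not that of Adgrg6, which was higher at P21 as well. Tgm2, the transglutaminase that binds Adgrg1, had 5.52 and 12.6 CPM in Car4+ capillaries under hyperoxia and 0.0240 and 0 CPM without it (edgeR adjusted p = 0.731), but 12.3 and 50.2 CPM at P21. In Car4- capillaries it was 60.01 and 26.6 CPM under hyperoxia and 91.8 and 74.1 CPM without it. Gna12, a G protein alpha subunit, had 103 and 208 CPM in Car4+ capillaries at P7 against 22.5 and 24.7 CPM at P21 (edgeR adjusted p = 0.858) and 45.1 and 48.5 CPM under hyperoxia (edgeR adjusted p = 0.731). Cd55, the ligand of Adgre5, had 16.4 and 14.5 CPM in proliferative EC under hyperoxia and 0 CPM in both normal mice (edgeR adjusted p = 1). Col4a1, a chain of the collagen IV bound by Adgrg6, had 690 and 337 CPM in venous EC at P1 against 110 and 119 CPM at E18.5 (log2 change 1.99, edgeR adjusted p = 0.358).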

How the data were processed

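The authors deposited whole-number counts of reads for each gene in each cell, with no normalization. Per the submitters' processing notes, STAR 2.5.2b and HTSeq 0.10 were used and the build GRCh38 is named; that is a human build, and its role, the annotation and the strand setting are not given in the sources used here. Positions and exon lengths are those of GRCm38 in GENCODE M21, where 18017 of 18072 symbols were found; 103 genes had 0 reads.

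For each mouse the counts of all cells with a label or class were added up (Car4- capillaries are Early and Late together). Levels were taken from at least 4 cells, as CPM of the sum and, per exon length, RPKM. Tests used at least 8 cells, TMM normalization, filterByExpr and the quasi-likelihood test of edgeR 4.0.16 (R 4.3.3), with all usable groups of a class in 1 model and adjustment over all genes; the interaction had the mouse as a term. Low-count filtering left 11 to 16 members per comparison, some only through the group where they are high, so counts over them support nothing. The procedure was run on simulated counts with known changes, as a check of the code. How many such changes it finds at the spread of these mice is not given here.

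The 21 members, the list of 43 partner genes, the markers and the rules were chosen with earlier results of these data known. Named were members with at least 20 CPM under a label and, per comparison, up to 6 with an edgeR p under 0.05. The Adgrl3 values outside Car4- capillaries, the Adgrg1 values outside Car4+ capillaries, the Adgre5 values in Car4- capillaries, and the arterial EC II and later arterial EC I values of Adgrg6 were chosen after values were seen; partners were named after their values were seen.

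Alternatives were DESeq2 1.42.0, RLE normalization, no filter beyond 1 read, CD31-gate cells alone, thinning of cells to 50000 reads (without 11 shallower ones), limma 3.58.1 on log2 of the mean CPM over cells plus 1, the sex of the mouse as a block, and leaving out each mouse.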

Additional observations from a re-analysis of the deposited data

Results flagged for a closer look

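In 2 of 169 pairs of classes compared for a member with at least 5 CPM, both mice of a group moved one way in one class and the opposite way in the other. These differences were not tested. The share over all genes is not given here, so this count is no result about the members. Adgra3 under hyperoxia at P7 was higher in Car4+ capillaries (99.8 and 134 CPM against 76.1 and 14.4 CPM) and lower in venous EC (4.32 and 2.35 CPM against 27.9 and 27.7 CPM), with log2 changes of 1.23 and -3.07, which are 4.3 apart. Its venous reads came from 6 of 23 and 3 of 30 hyperoxia cells and from 4 of 21 and 9 of 23 normal cells. One cell held 93.8% of those of the male hyperoxia mouse and 62.5% of those of the normal P7 female mouse. The 14.4 CPM in Car4+ capillaries came from 6 of 24 cells. Adgrl2 at P7 against P1 was higher in Car4+ capillaries (636 and 1436 CPM against 626 and 218 CPM) and lower in proliferative EC (198 and 162 CPM against 226 and 249 CPM), with log2 changes of 1.58 and -0.55, which are 2.13 apart. The female Car4+ values of that gene differ by little, and 56.5% of the P7 male reads were in 1 cell.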

How the results depend on the processing

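With DESeq2 in place of edgeR the count of members called was 1 for Car4- capillaries at P7 against P1 (Adgrd1), 3 at P21 against P7 (Adgrf5, Adgrg6, Adgrv1), 3 at P21 against P1 (Adgrd1, Adgrf5, Adgrg6) and 1 under hyperoxia (Adgrl3). It was 1 for Car4+ capillaries at P21 against P7 (Adgrl4), 1 under hyperoxia (Adgrg1), 3 for proliferative EC at P1 against E18.5 (Adgrf5, Adgrg3, Adgrg6), 1 for arterial EC I (Adgrg6), 1 for birth (Adgrf5) and 1 for the interaction (Adgrg1). In the order given, DESeq2 called 398, 698, 890, 183, 258, 265, 510, 246, 572 and 216 genes in all. In the same comparisons edgeR called 0 to 74 of the 10250 to 14967 genes it tested. In edgeR, arterial EC I had 1 member (Adgrg6) without the filter, and birth 1 (Adgrf5) with thinned cells. The share of all genes called in those fits is not given here, so these counts are no result about the members. Leaving out a mouse leaves 1 mouse in a group, assumed to vary like the others, so members called in such fits are not counted here. The cause of these differences was not tested. With sex as a block, which pairs the mice of a sex and no shared animal, the replicate block changed no call: 0 members were called in each of 16 comparisons.

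Of 439 alternative values of the 30 log2 changes, 417 kept direction and side of the threshold and 21 passed it. The exception is Adgrl2 in Car4+ capillaries at P21 against P7, which turned to 0.083 with CD31-gate cells alone. The 30 changes were named for a low p in these same data. The alternatives reuse the same cells, in part with a mouse left out, so a kept direction adds no support.

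Members on one side in every mouse and at least 2-fold apart numbered 3 for venous EC against Car4- capillaries and 5 with CD31-gate cells or at least 8 cells (leaving out a mouse gave 3 to 5). For arterial EC I against Car4- capillaries they were 1, and 3 by the mean CPM over cells (1 to 2). For venous EC against arterial EC I they were 2, 4 by the mean CPM over cells and 1 with CD31-gate cells (1 to 2), and for proliferative EC 0, and 1 with the normal groups only (0 to 1). Without thinning, 8 of 11 shares of cells with a read moved beyond their interval.

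For 5 members every label mean was under 1 CPM, and the part of depth in this was not tested. With 2 mice per group, the mice that differ in run, gate and depth weigh heavily in each fit.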
